A study of Mus musculus with 10 samples.

Results

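The 6 genes described here, Mpo, Elane, Prtn3, Ctsg, Ms4a3 and Prss57, are expressed at the promyelocyte stage, and all but Ms4a3 encode proteins of the primary (azurophil) granule. They were taken by symbol from RNA-seq tables of 10 mouse bone marrow libraries, each listing 16771 genes, and all 6 were listed in every library and passed the minimum of 1 RPKM in 2 libraries used for the tests. There were 5 groups of 2 libraries, given as biological replicates, all from C57BL/6 mice. Of these, 4 were lineage-negative marrow cells, the stem and progenitor compartment (HSPC) that remains once cells with mature surface markers are held back on magnetic beads. The first was wild-type (WT). The second, Npm1c, had the genotype Npm1flox-cA/+;Mx1-Cre+, in which the interferon-inducible Cre, active in blood cells and in other tissues, switches 1 Npm1 allele to the mutant whose protein leaves the nucleolus. The next, Flt3-ITD, was Flt3ITD/+, with an internal tandem duplication in 1 allele of the Flt3 receptor kinase and no Cre in its genotype. The double mutant (DM) was Npm1flox-cA/+;Flt3ITD/+;Mx1-Cre+. The last group was WT bone marrow neutrophils. The labels used here give no age or sex, no account of how the Cre was induced, and no statement on pooling of animals.

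Primary granules are the first granules a developing neutrophil makes. Their genes are transcribed strongly in granulocyte-monocyte progenitors and promyelocytes, and transcription is largely shut off before the cell matures, while the proteins stay stored and are used later against microbes. Mpo encodes myeloperoxidase, the haem enzyme that makes hypochlorous acid. Elane (neutrophil elastase), Prtn3 (proteinase 3), Ctsg (cathepsin G) and Prss57 (the fourth of the neutrophil serine proteases) are proteases, and Ms4a3 is a membrane protein that marks granulocyte-monocyte progenitors. The transcription factors PU.1, C/EBP, MYB and RUNX1 are known to act at promoters of this family.

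Values were deposited as RPKM, read numbers per kilobase of gene length, scaled to the read total of the library. Read totals recovered from the values ran from 40783015 to 57824373 per library, with between 60.9% and 81.3% of them on listed genes. Within a group, the median gene differed between the replicates by 0.03 to 0.14 on the log2 scale, with the largest value in Flt3-ITD. The Y-linked gene Ddx3y was above 0.5 RPKM in 2 libraries, Npm1c replicate 2 and Flt3-ITD replicate 1, so the replicates of both groups differed in it. Neutrophil libraries showed their label: 13 late neutrophil genes summed to 102971 and 103286 RPKM there and to 60.1 to 434 RPKM in the 8 HSPC libraries. In the neutrophil libraries, 9 mast cell, basophil and eosinophil genes still summed to a mean of 618 RPKM, beside 610 in WT HSPC. For 10 erythroid genes the mean sums were 422 and 1870 RPKM. The purity of the neutrophils was not tested. The DM libraries differed from the other HSPC in their markers, with 10 dendritic cell genes summing to 7064 and 7110 RPKM against 16.5 to 34.6 in the other 6 HSPC libraries. In bulk RNA, fewer cells of a type and less RNA per cell cannot be told apart.

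Of the 6 genes, 3 lie together on chromosome 10 (GRCm38, GENCODE M21): Elane at 79886247 to 79888215 and Prtn3 at 79874476 to 79883174, both on the plus strand, and Prss57 at 79781474 to 79790961 on the minus strand. Mpo is at chromosome 11, 87793581 to 87804413 (plus), Ctsg at chromosome 14, 56099881 to 56102574 (minus) and Ms4a3 at chromosome 19, 11629496 to 11640851 (minus). The promoter stretches below are shown to describe their letters, and no link between them and the levels in the double mutant was tested. They come from RefSeq on GRCm38.p6, which held 5 of the 6 genes, and each runs 5′ to 3′ on the gene's own strand from 250 bases before its start site, ending where an annotated exon begins or at most 25 bases into it. Capitals mark matches on either strand to the MYB letters AACNG. They also mark the PU.1 core, GAGGAA. The same holds for RUNX, with the letters TGTGGT, and for the TATA box, searched as TATAAA. No matched letters overlap another motif.
Mpo, chr11:87793534-87793605, plus strand: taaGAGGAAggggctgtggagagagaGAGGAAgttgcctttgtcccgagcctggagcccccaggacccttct
Elane, chr10:79886062-79886271, plus strand: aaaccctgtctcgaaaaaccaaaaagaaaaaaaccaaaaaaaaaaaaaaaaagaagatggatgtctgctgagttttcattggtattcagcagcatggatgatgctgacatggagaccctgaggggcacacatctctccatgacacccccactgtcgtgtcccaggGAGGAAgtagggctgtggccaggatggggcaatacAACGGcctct
Prtn3, chr10:79879417-79879638, plus strand: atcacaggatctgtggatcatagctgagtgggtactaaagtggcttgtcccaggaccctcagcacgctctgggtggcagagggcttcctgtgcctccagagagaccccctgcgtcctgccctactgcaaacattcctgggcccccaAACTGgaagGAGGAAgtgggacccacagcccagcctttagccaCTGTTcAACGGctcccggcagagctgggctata
Ctsg, chr14:56102575-56102824, minus strand: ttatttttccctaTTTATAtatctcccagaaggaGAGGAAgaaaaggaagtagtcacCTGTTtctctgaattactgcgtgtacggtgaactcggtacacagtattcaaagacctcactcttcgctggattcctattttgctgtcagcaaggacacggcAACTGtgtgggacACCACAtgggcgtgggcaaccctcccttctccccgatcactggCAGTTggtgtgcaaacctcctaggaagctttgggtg
Ms4a3, chr19:11640852-11641101, minus strand: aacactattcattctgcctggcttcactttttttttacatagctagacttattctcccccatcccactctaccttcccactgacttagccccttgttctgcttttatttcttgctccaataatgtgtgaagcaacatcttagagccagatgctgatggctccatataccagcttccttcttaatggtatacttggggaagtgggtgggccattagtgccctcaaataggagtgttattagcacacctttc

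Over the full 250 bases before the start site, GAGGAA was present in 4 of the 5 promoters, and in 23.3% of 32851 RefSeq promoters of the same length. Distances are counted from the RefSeq start site, which for Mpo, Elane and Prtn3 lay inside the GENCODE span given above. Elane and Prtn3, neighbours on chromosome 10, carried GAGGAA with its first base at -85 and -95. In Ctsg it began at -216, and in Mpo there were matches at -247 and -224. AACNG was present in the same 4 promoters and in 74.2% of all promoters. Its matches in Mpo (-165) and Elane (-50 and -20) lay past the GENCODE start of the gene. The whole Prtn3 window, with its GAGGAA and AACNG matches, lay past the GENCODE start of Prtn3. TGTGGT (14.0% of promoters) and TATAAA (12.4%) each had a match in Ctsg and in no other of the 5. The C/EBP letters TTGCNNAA or TTNNGCAA, found in 9.56% of promoters, had no match in these 5 windows. Ms4a3 had no match to any of the motifs. A match is a description of the letters and shows no binding.

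In WT HSPC the levels of the 6 genes spanned a wide range, with Elane, Mpo and Ctsg near the top of the tables. Elane, with 384 and 399 RPKM, ranked 68th and 66th of the listed genes in the 2 WT libraries, and Mpo, with 285 and 297 RPKM, ranked 87th and 83rd. Ctsg stood at 259 and 274 RPKM and ranked 99th and 92nd. Prtn3 was lower at 59.5 and 62.6 RPKM, Ms4a3 lower again at 22.8 and 23.7 RPKM, and Prss57 lowest at 2.94 and 3.23 RPKM, ranked 6263rd and 5938th. The replicates of WT, Npm1c, DM and neutrophils were close for every member, with the higher library at most 1.15 times the lower, and neighbours in the WT order did not overlap.

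The order between genes depended on the gene length the authors divided by. The length recovered from the values was, for 6980 of 11158 genes checked (62.6%), a sum over the exons of all annotated transcripts, so that shared exons were counted repeatedly. Each exon entered as its end minus its start, 1 base short of its length. For Mpo it was 7752 bases, where its merged exons measure 3424 bases. Elane and Ctsg did not follow that sum. For Elane, with 1 annotated transcript, the length was 915 bases (sum 979, merged exons 984), and for Ctsg 997 (sum 1540, merged exons 1033). Per kilobase of merged exons, WT Mpo was at 659 RPKM, above Elane at 364, Ctsg at 257, Prtn3 at 146, Ms4a3 at 42.7 and Prss57 at 7.29. Comparisons of 1 gene between libraries do not change with this length. Mpo, Prtn3 and Prss57 overlap other annotated genes (Gm11505, Plppr3 and Fstl3), and no source used here says whether counting used the strand, so their reads can include some of those genes.

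**Figure D1:**
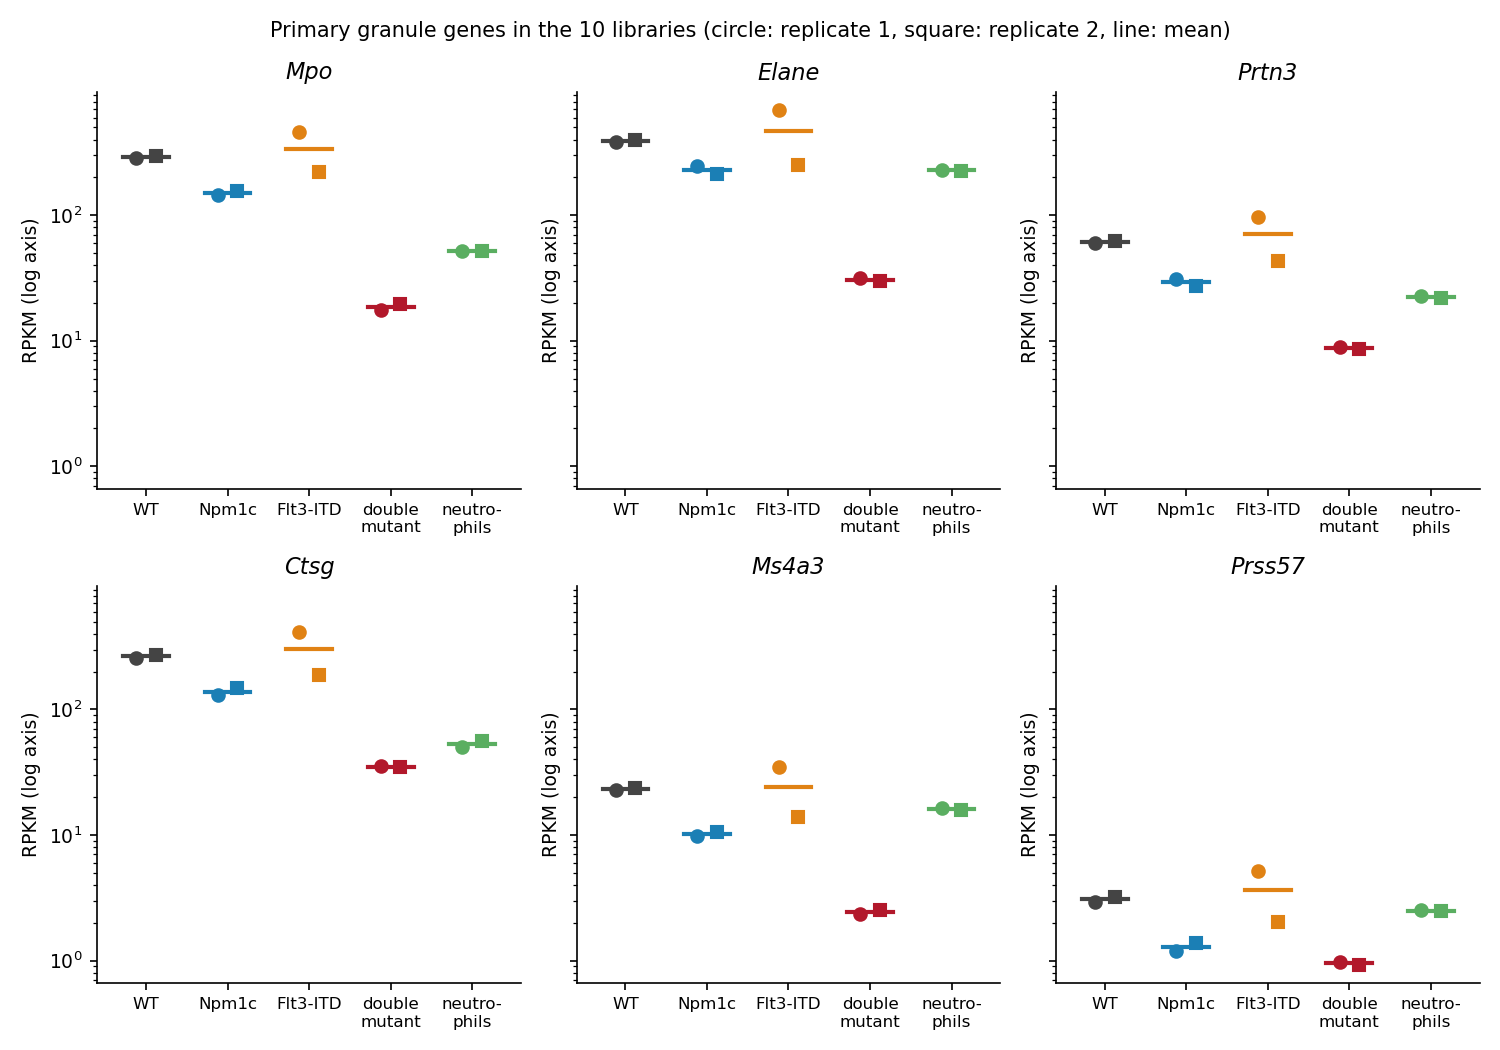
RPKM (log axis, shared by the panels) of the 6 genes in each of the 10 libraries, with circles for replicate 1, squares for replicate 2 and a line at the group mean. The DM libraries are the lowest of all groups in every panel, and the 2 Flt3-ITD libraries lie on either side of the WT libraries.

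The comparison of DM with WT HSPC set cells with both mutations beside WT cells. The DM and Npm1c genotypes also name Mx1-Cre, and that of Flt3-ITD does not. Cre and the Npm1 mutation thus cannot be told apart when these groups are compared with Flt3-ITD. The same holds against WT unless the WT mice carried Cre, which is not stated here. All 6 genes were lower in the DM. Mpo was at 17.6 and 19.7 RPKM in the DM libraries, 6.41% of its WT mean, and Elane at 31.4 and 30.1 RPKM, 7.85% of WT. Both groups' replicates lay close together and the groups did not overlap for any member. Ms4a3 fell to 2.35 and 2.52 RPKM (10.5% of WT), Ctsg to 35.6 and 34.6 RPKM (13.2%) and Prtn3 to 8.86 and 8.57 RPKM (14.3%). Prss57 fell least, to 0.975 and 0.925 RPKM, 30.8% of WT. The members' reads together made up 0.425% and 0.446% of the reads on listed genes in WT and 0.0374% and 0.0396% in the DM.

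Tests were run with limma on log2(RPKM + 0.5), a scale that understates the change of a low gene such as Prss57, with p-values adjusted over all tested genes and a threshold of 0.05. Because the median gene itself moved, log2 changes are given relative to it, with the standard error (SE) of the fit. Higher and lower calls are on the deposited scale. The p-values are too: they test the change before the median shift is taken off, not the relative change printed beside them. The fit pooled 1 spread per gene over all fitted libraries, so the Flt3-ITD pair entered the SE of every comparison. The log2 of Elane in replicate 1 over replicate 2 was 1.45 in Flt3-ITD, -0.06 in WT, 0.20 in Npm1c and 0.06 in the DM. A missing call between other groups thus does not show that their own replicates were spread. The median shift was -0.34 for DM against WT, -0.26 for Npm1c, -0.14 for Flt3-ITD and -0.70 for neutrophils, each against WT. It was -0.09 for DM against Npm1c, -0.18 for DM against Flt3-ITD, -0.09 for Npm1c against Flt3-ITD, 0.09 for the interaction and -0.49 for neutrophils against DM.

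In DM against WT, Mpo changed by -3.59 ± 0.29 (adjusted p = 1.45e-05, limma), the 10th lowest log2 change of 9702 genes. Elane changed by -3.31 ± 0.40 (adjusted p = 1.00e-04), the 12th lowest. Ms4a3 (-2.68 ± 0.35), Ctsg (-2.57 ± 0.32) and Prtn3 (-2.40 ± 0.32) ranked 23rd, 29th and 37th, with adjusted p between 9.87e-05 and 1.52e-04. Prss57 changed by -0.97 ± 0.32 (adjusted p = 0.00689) and ranked 424th. The call of 6 of 6 stands against a background of 58.9% of tested genes called lower in this comparison, and 66.1% with groups that did not overlap in that direction. The members' median change was -2.62 relative to the median gene. The share of calls that were lower was 71.2% over all genes and 51.9% under median-of-ratios scaling, and all 6 members were called lower under both.

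**Figure D2:**
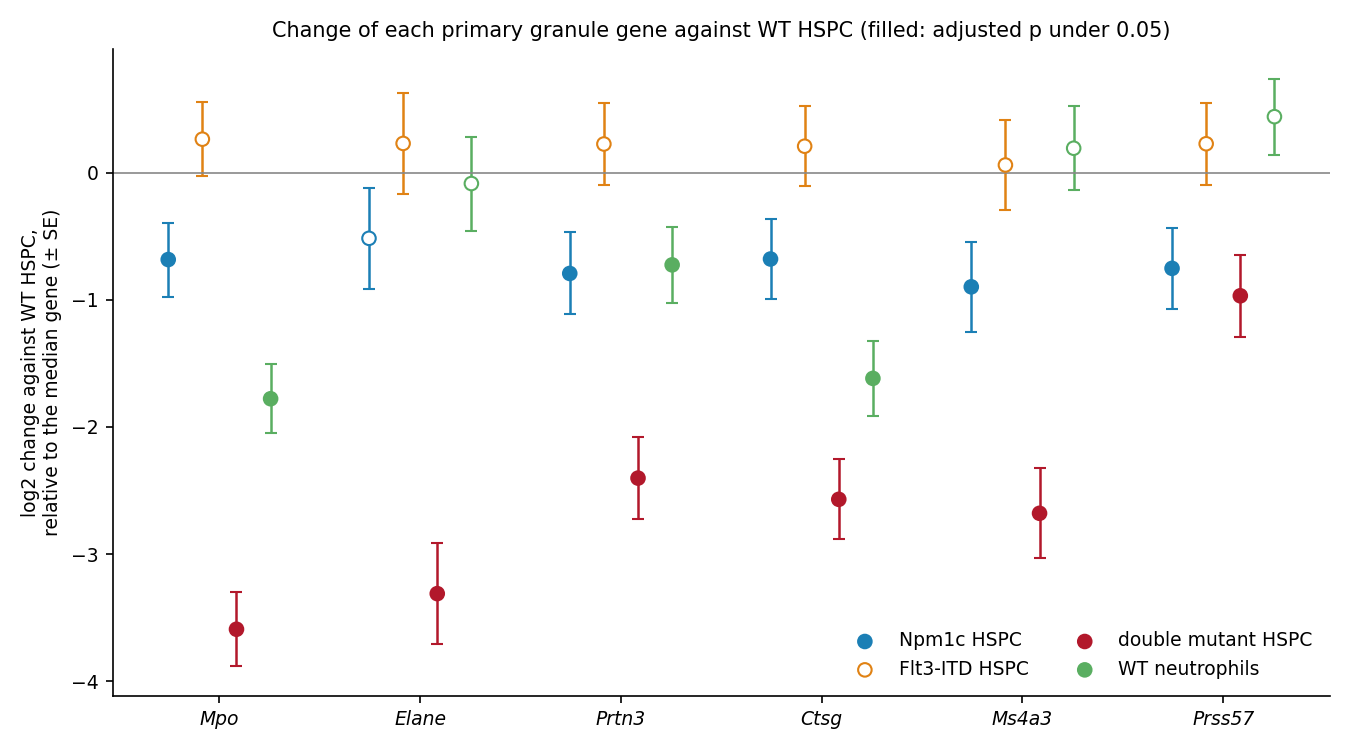
Log2 change against WT HSPC relative to the median gene, with the SE of the fit, for each gene in Npm1c, Flt3-ITD, DM and neutrophils. Filled symbols have an adjusted p under 0.05 (limma) for the deposited change, before the median shift is taken off. The DM points of Mpo and Elane are the lowest, at -3.59 and -3.31, and no Flt3-ITD point is filled.

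With Npm1c alone, the 6 genes stood between 41.4% (Prss57) and 58.5% (Elane) of their WT means. Mpo was at 146 and 157 RPKM, Elane at 245 and 213, Ctsg at 130.0 and 148, and Prtn3 at 31.0 and 27.4. Ms4a3 was at 9.76 and 10.5 RPKM and Prss57 at 1.19 and 1.37. Every Npm1c library was below both WT libraries for every member. In limma, 5 of the 6 were called lower, with adjusted p from 0.0271 (Ms4a3, -0.90 ± 0.35) to 0.0369 (Ctsg, -0.68 ± 0.32), and Elane was not (-0.52 ± 0.40, adjusted p = 0.126). The background was 58.1% of tested genes called lower and 79.1% with groups that did not overlap in that direction. The members' median change was -0.72 relative to the median gene. No member kept its call with no filter on low values, under any of the 3 other scalings, or without any 1 of the 4 libraries compared. Lower genes made up 95.9% of all calls here, but 52.6% under median-of-ratios scaling and 46.4% after quantile normalization.

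In Flt3-ITD the 2 libraries disagreed, and by far more than in any other group. Mpo was at 457 RPKM in replicate 1 and 219.8 in replicate 2, Elane at 689 and 252, and Ctsg at 415 and 188. Prtn3 was at 97.5 and 42.9 RPKM, Ms4a3 at 34.8 and 13.8, and Prss57 at 5.20 and 2.04. For each of the 6, replicate 1 was the highest of all 10 libraries and replicate 2 was below both WT libraries, so the groups overlapped. Replicate 1 exceeded replicate 2 by a log2 of 1.05 (Mpo) to 1.45 (Elane), while the median gene of that group differed by 0.14. No member was called in either direction (adjusted p from 0.777 to 0.890, limma), against a background of 31.3% of genes called lower and 1.86% called higher. Without replicate 1 all 6 were called lower than WT, as were 5450 of 9671 genes, and without replicate 2 all 6 were called higher, as were 1044 of 9688 genes. Each of these fits rests on 1 Flt3-ITD library, which is assumed to vary like the other, tighter groups. Replicate 1 is also the library of this group with Y-linked reads. Of the other myeloid genes, chosen here after their values were seen, the basophil protease Mcpt8 was at 138 and 59.2 RPKM and the granulocyte factor Cebpe at 4.54 and 1.98. The 10 monocyte genes summed to 195 and 135 RPKM, while the 13 late neutrophil genes differed less, at 318 and 276 RPKM, with Ltf at 5.50 and 5.55 and Padi4 at 0.753 and 0.801. Their part in the difference was not tested.

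The DM was also compared with each single mutant. Against Npm1c, 5 members were called lower (background 43%), from -1.60 ± 0.32 for Prtn3 to -2.90 ± 0.29 for Mpo, with adjusted p from 6.74e-05 to 0.00225. Prss57 was not called there (-0.20 ± 0.32, adjusted p = 0.427), with means of 1.28 ± 0.128 (SD, n = 2) RPKM in Npm1c and 0.950 ± 0.0350 in the DM. Mpo was at 18.7 ± 1.51 RPKM in the DM against 151 ± 7.79 in Npm1c. Against Flt3-ITD all 6 were called lower (background 48.8%), from -1.21 ± 0.32 for Prss57 to -3.87 ± 0.29 for Mpo, and both DM libraries were below both Flt3-ITD libraries, as for 54.9% of tested genes. Npm1c compared directly with Flt3-ITD gave 1 call, Mpo (-0.97 ± 0.29, adjusted p = 0.0489), against a background of 15% called lower. All 6 members were lower in both Npm1c libraries than in both Flt3-ITD libraries, as were 44.9% of tested genes. That call was lost without either Npm1c library, with no filter and after quantile normalization (adjusted p = 0.0525, limma). These comparisons share libraries with each other and with those against WT.

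The interaction asked whether the DM differed from the product of the 2 single-mutant effects. If the Npm1c and Flt3-ITD fold changes were multiplied, Mpo would stand at 176 RPKM and Elane at 275, while the DM means were 18.7 and 30.7, 10.6% and 11.2% of those products. Ctsg was at 22.3% of its product, Ms4a3 at 23.0%, Prtn3 at 25.9% and Prss57 at 63.4%. On the log2 scale, relative to the median gene, the interaction was -3.20 ± 0.41 for Mpo (adjusted p = 5.23e-04, limma), -3.06 ± 0.56 for Elane (adjusted p = 0.00285) and -2.13 ± 0.45 for Ctsg (adjusted p = 0.00560). Ms4a3 (-1.87 ± 0.50, adjusted p = 0.0167) and Prtn3 (-1.87 ± 0.46, adjusted p = 0.0114) passed too. Prss57 did not (-0.47 ± 0.45, adjusted p = 0.484). The 5 lower calls stand against 27.6% of tested genes with a lower interaction and 39.2% with a higher one. The product rests on the uneven Flt3-ITD libraries: with a term for Y-linked reads, added after the data were seen, Mpo, Elane and Ctsg were still called and Ms4a3 (adjusted p = 0.0699) and Prtn3 (adjusted p = 0.0597) were not. Ms4a3 also missed the threshold without Npm1c replicate 2 (adjusted p = 0.0571) or WT replicate 1 (adjusted p = 0.0515), and Prss57 passed without Flt3-ITD replicate 2 (adjusted p = 1.62e-04). The deposited log2 interaction of Prss57, -0.38, turned to 0.20 without Flt3-ITD replicate 1 and to 0.28 with the Y-linked term, so its direction did not hold.

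**Figure D3:**
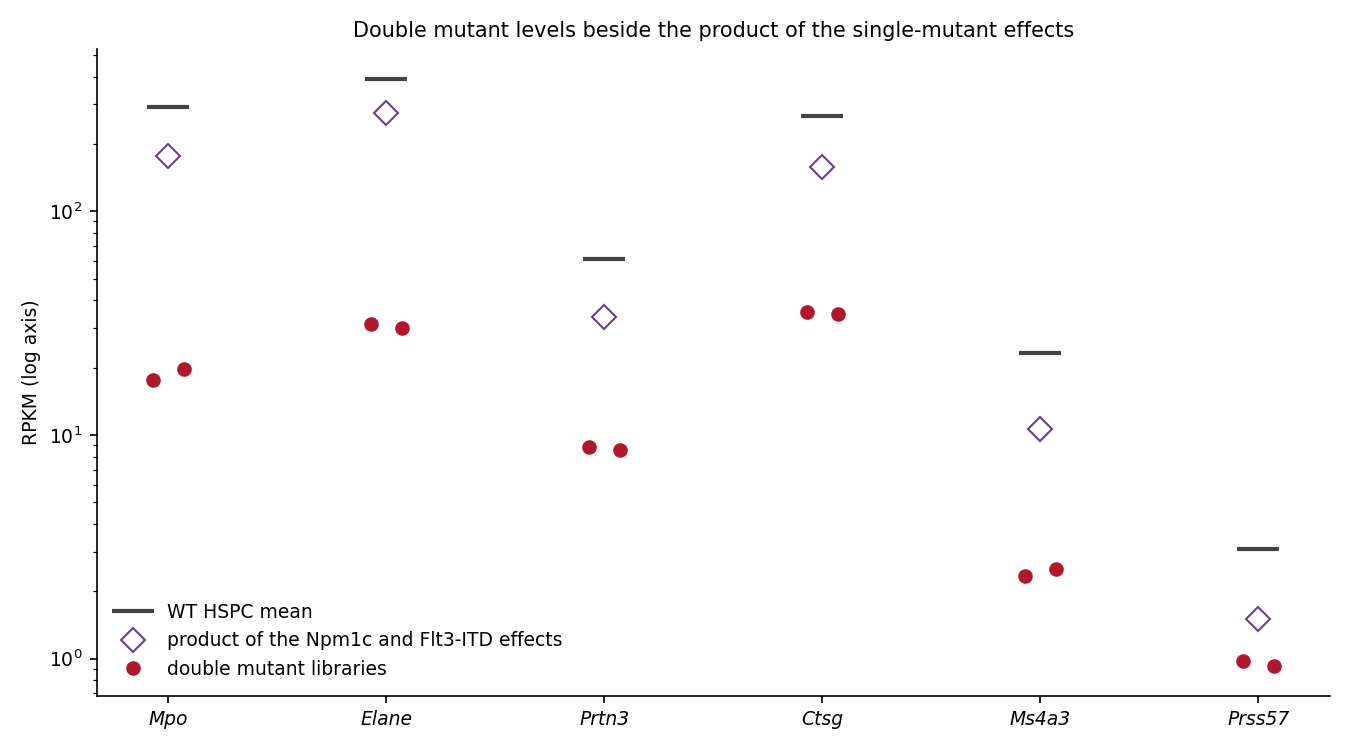
RPKM (log axis) of each gene, with a dash at the WT mean, an open diamond at the product of the Npm1c and Flt3-ITD effects and filled circles for the 2 DM libraries. The DM circles lie below the diamond for all 6 genes, furthest for Mpo (10.6% of the product) and least for Prss57 (63.4%).

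Bone marrow neutrophils, which carry these proteins in their granules, gave a reference later in the lineage. Their maturation stage was not tested. Elane was at 228 and 227 RPKM there, 58.0% of the WT HSPC mean, but Mpo was at 51.9 RPKM in both libraries (17.8%) and Ctsg at 50.5 and 55.8 RPKM (19.9%). Prtn3 was at 22.9 and 22.0 RPKM (36.8%), Ms4a3 at 16.5 and 15.9 (69.8%) and Prss57 at 2.52 and 2.48 (81.0%). Every neutrophil library was below both WT HSPC libraries for each member, as for 66.1% of tested genes. Against WT HSPC, Mpo (-1.78 ± 0.27, adjusted p = 2.56e-05), Ctsg (-1.62 ± 0.30, adjusted p = 7.26e-05) and Prtn3 (-0.72 ± 0.30, adjusted p = 0.00183) were called lower in limma, with 62.8% of genes called lower. Elane (adjusted p = 0.0732), Ms4a3 (adjusted p = 0.176) and Prss57 (adjusted p = 0.430) were not. On the deposited log2 scale these last 3 were at -0.78, -0.51 and -0.26, and under median-of-ratios scaling they turned to values above 0, while Prtn3 missed the threshold (adjusted p = 0.0630, limma). Fitted on the 4 compared libraries alone, all 6 were called lower, as were 6289 of 9643 genes.

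All 6 genes were lower in both DM libraries than in both neutrophil libraries, as were 32.6% of tested genes, and 5 passed the test. Against the DM, neutrophils had higher Elane (3.36 ± 0.37, adjusted p = 8.44e-05), Ms4a3 (3.00 ± 0.33), Mpo (1.94 ± 0.27), Prtn3 (1.81 ± 0.30) and Prss57 (1.54 ± 0.30), 5 calls against a background of 29.4% called higher. Ctsg was not called (1.08 ± 0.30, adjusted p = 0.0892), at 53.2 ± 3.76 RPKM in neutrophils and 35.1 ± 0.755 in the DM, and its deposited log2 change of 0.59 turned to -0.037 on listed-gene total scaling, where Prss57 also missed the threshold (adjusted p = 0.0816). Under median-of-ratios scaling Ctsg was called higher (adjusted p = 0.00272, limma).

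Ratios between members within a library are free of the library's scaling, and they differed between groups. The RPKM of Elane over that of Mpo was 1.35 and 1.34 in WT HSPC, 1.78 and 1.53 in the DM and 4.39 and 4.37 in neutrophils. Elane over Prtn3 was 6.44 and 6.38 in WT, 3.54 and 3.52 in the DM and 9.95 and 10.3 in neutrophils. So Elane stood higher against Mpo and Prtn3 in neutrophils than in WT HSPC, while in the DM it stood lower against Prtn3. Ctsg over Mpo was 0.908 and 0.922 in WT, 0.892 and 0.945 in Npm1c and 0.909 and 0.854 in Flt3-ITD, but 2.02 and 1.75 in the DM. Ms4a3 over Mpo went from 0.0799 and 0.0798 in WT to 0.134 and 0.128 in the DM and to 0.319 and 0.307 in neutrophils. The 2 Flt3-ITD libraries were close in Ctsg over Mpo, but differed in Elane over Mpo (1.51 and 1.14), Elane over Prtn3 (7.06 and 5.86) and Elane over Ctsg (1.66 and 1.34). These ratios are given without a test.

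**Figure D4:**
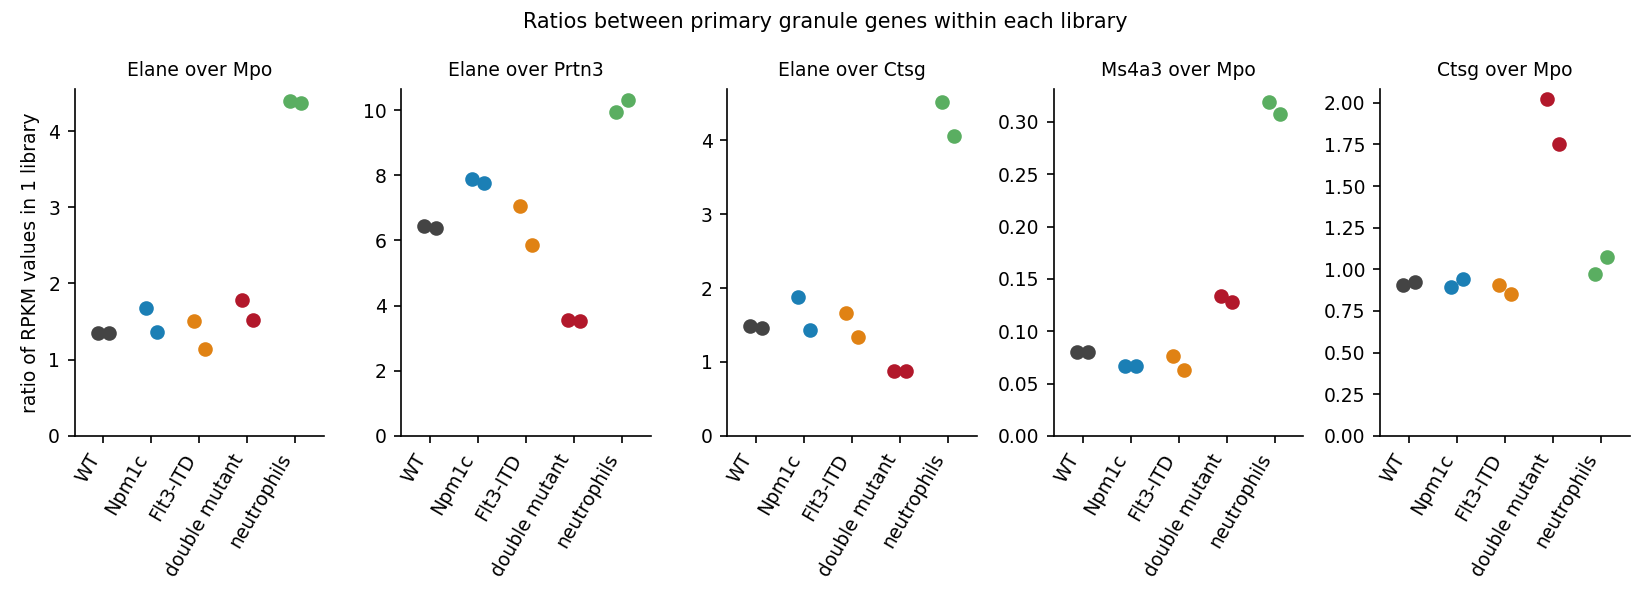
Ratio of the RPKM values of 2 members in each library (linear axes from 0), with 1 point per library and 2 libraries per group. Elane over Mpo is near 4.38 in neutrophils and between 1.14 and 1.78 in all HSPC libraries, and Ctsg over Mpo is highest in the DM.

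Among the 10 libraries the members varied together: Pearson r between pairs of members ran from 0.70 to 0.99 over the 15 pairs, and from 0.83 to 0.997 over the 8 HSPC libraries. These points share groups and library scaling, and they are a description. The genes whose pattern was most like the members' mean over the 10 libraries, of 3835 genes with at least 10 RPKM in 2 libraries, were Tm9sf3 (r = 0.985), Gstm1 (r = 0.975), Tecr, Pdk3, Tfdp1, Vapa, Deb1 and Crkl. Pearson r follows the pattern and not the size of a change. Tm9sf3 was at 52.7 RPKM in WT and 37.5 in the DM, and Tfdp1 at 145 and 70.8. Gstm1, a glutathione transferase, was at 9.93 ± 0.163 (SD, n = 2) RPKM in WT, 5.61 ± 0.839 in Npm1c, 10.3 ± 6.95 in Flt3-ITD, 2.30 ± 0.0988 in the DM and 5.04 ± 0.0251 in neutrophils. Over the 8 HSPC libraries, of 3220 genes, they were Adgrg3 (r = 0.998), Phgdh (r = 0.993), Tecr, Cd93 and Tmem165. The adhesion receptor Adgrg3 was at 18.2 ± 0.428 RPKM in WT, 10.8 ± 0.261 in Npm1c, 19.7 ± 9.81 in Flt3-ITD and 4.19 ± 0.141 in the DM. Cd93, a membrane glycoprotein of early progenitors, was at 38.3 ± 0.315, 20.2 ± 0.117, 41.0 ± 10.9 and 6.57 ± 0.215 RPKM in the same order. Few of these names returned under other scalings: between 0 and 1 of the 8, and between 1 and 3 of the 5.

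Transcription factors known to drive or restrain this gene family moved in both directions in the DM. Of 13 tested, 4 were higher, 6 lower and 3 not called against WT, where 2316 of all 9702 genes were higher and 5719 lower. Myb, a progenitor factor that acts on granule promoters, fell from 59.1 ± 0.979 to 10.4 ± 0.0588 RPKM (-2.11 ± 0.097, adjusted p = 9.57e-07). Cebpe, needed for late granulocyte maturation, fell from 3.24 ± 0.0712 to 0.403 ± 0.0737 RPKM (-1.71 ± 0.31, adjusted p = 5.62e-04), and Gata2 by -1.84 ± 0.14. Irf8, which directs progenitors toward monocytes and dendritic cells, rose from 12.7 ± 0.0999 to 89.0 ± 0.0297 RPKM (3.10 ± 0.13, adjusted p = 1.73e-06). Spi1, which encodes PU.1, was at 8.64 ± 0.670 RPKM in WT, 3.83 ± 0.265 in Npm1c, 9.47 ± 3.58 in Flt3-ITD, 30.1 ± 0.304 in the DM and 89.6 ± 1.84 in neutrophils. The list's median was -0.18 relative to the median gene. In Npm1c 8 of the 13 were lower and 1 higher (242 of all genes were higher and 5638 lower), with Irf8 (-0.91 ± 0.13) and Spi1 (-0.82 ± 0.21) falling most. In neutrophils Cebpe was 5.38 ± 0.29 higher than in WT HSPC, and 5 of 14 were higher and 7 lower, against 2892 and 6391 of all 10174 genes.

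Genes that fold, process and package granule proteins moved in both directions. Of 17 such genes in DM against WT, 9 were higher, 3 lower and 5 not called, beside 2316 higher and 5719 lower of all 9702 genes, with a median of 1.11 relative to the median gene. Lyz1 (3.35 ± 0.073, from 0.0140 to 3.66 RPKM), a lysozyme, Hmox1 (3.02 ± 0.13), which breaks down haem, and the lysosomal fucosidase Fuca1 (1.92 ± 0.071) were higher. Alas1, the first enzyme of haem synthesis in non-erythroid cells and so of the haem that Mpo carries, fell from 6.81 to 1.5 RPKM (-1.53 ± 0.16, adjusted p = 3.01e-05). In Npm1c 7 of the 17 were lower and none higher, a smaller share than the 58.1% of all tested genes called lower there. Ctsc, the peptidase that activates the granule proteases, was the furthest down there (-0.65 ± 0.18), at 5.25 RPKM in WT, 2.55 in Npm1c, 4.98 in Flt3-ITD, 12.0 in the DM and 2.96 in neutrophils. In neutrophils against WT HSPC, 8 of the 17 were higher, led by Lyz2 (7.68 ± 0.31), and 9 lower, beside 2892 higher and 6391 lower of all 10174 genes.

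A list of protease inhibitors, which holds inhibitors of cysteine proteases and of granzyme B beside those of the granule serine proteases, moved in both directions. Of 9 tested in DM against WT, 6 were higher and 3 lower (median 1.52), where 2316 of all 9702 genes were higher and 5719 lower. Cst3, a cysteine protease inhibitor abundant in dendritic cells, went from 41.7 ± 0.328 to 1291 ± 0.962 RPKM (5.27 ± 0.16, adjusted p = 3.99e-07). Serpinb9, a granzyme B inhibitor, rose by 2.34 ± 0.058 and Serpinb8 by 2.15 ± 0.070. Slpi, the secretory inhibitor of elastase and cathepsin G, fell from 9.28 to 0.984 RPKM (-2.38 ± 0.23, adjusted p = 2.60e-05), and stood at 180.1 RPKM in neutrophils. Of 15 trafficking and congenital neutropenia genes, 3 were higher, 5 lower and 7 not called in the DM. Lyst, the lysosomal trafficking gene of Chediak-Higashi syndrome, rose by 1.95 ± 0.094, and Csf3r, the receptor for granulocyte colony-stimulating factor, fell from 3.05 to 0.758 RPKM (-1.16 ± 0.29, adjusted p = 0.00210). In Npm1c 10 of those 15 were lower and none higher, beside 5638 lower and 242 higher of all 9702 genes, with Csf3r (-0.68 ± 0.29) and Rab27a (-0.65 ± 0.20) the furthest. Of 4 tested partners of neutrophil extracellular traps, Cfp and Padi2 were higher in the DM and Camp and Ngp were not called.

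Late neutrophil genes are switched on after the primary granules are made. In DM against WT 1 of 13 was lower (Cxcr2, from 1.16 to 0.259 RPKM) and none higher, with a median of 0.68. Of all 9702 genes, 5719 were lower and 2316 higher there. In Flt3-ITD 7 were higher and none lower (180 and 3033 of all genes). In Npm1c 3 were higher and none lower (242 and 5638 of all genes), with the list's sum at 94.2 and 434 RPKM in the 2 libraries. In neutrophils against WT HSPC all 13 were higher (median 10.56), beside 2892 of all 10174 genes.

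Genes next to the members on their chromosomes were compared too. Among genes within 100000 bases of Elane that reached 1 RPKM in WT HSPC, the DM mean was 98.3% of WT for Palm, 60.7% for Ptbp1, 71.9% for Med16, 95.1% for R3hdm4, 85.1% for Arid3a, 51.6% for Wdr18 and 81.6% for Tmem259. The values for Elane (7.85%), Prtn3 (14.3%) and Prss57 (30.8%) were the lowest of this window. Ptbp1, a splicing repressor that lies between Prss57 and Prtn3, was called lower (-0.36 ± 0.072, adjusted p = 7.20e-05). Beside Ctsg, the basophil protease Mcpt8 fell further, from 145 ± 4.42 to 2.13 ± 0.659 RPKM (-5.47 ± 0.39, adjusted p = 8.88e-06), and was at 138 ± 0.519 RPKM in neutrophils. Beside Mpo, the eosinophil peroxidase gene Epx fell from 10.3 to 0.186 RPKM (-3.64 ± 0.40, adjusted p = 6.78e-05) and Supt4a was not called, at 16.8 and 16.5 RPKM. Beside Ms4a3, the Fc receptor chain Ms4a2 fell from 7.17 to 0.124 RPKM (-3.28 ± 0.22) while Ms4a6b rose from 1.31 to 3.38 RPKM (1.44 ± 0.20).

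**Figure D5:**
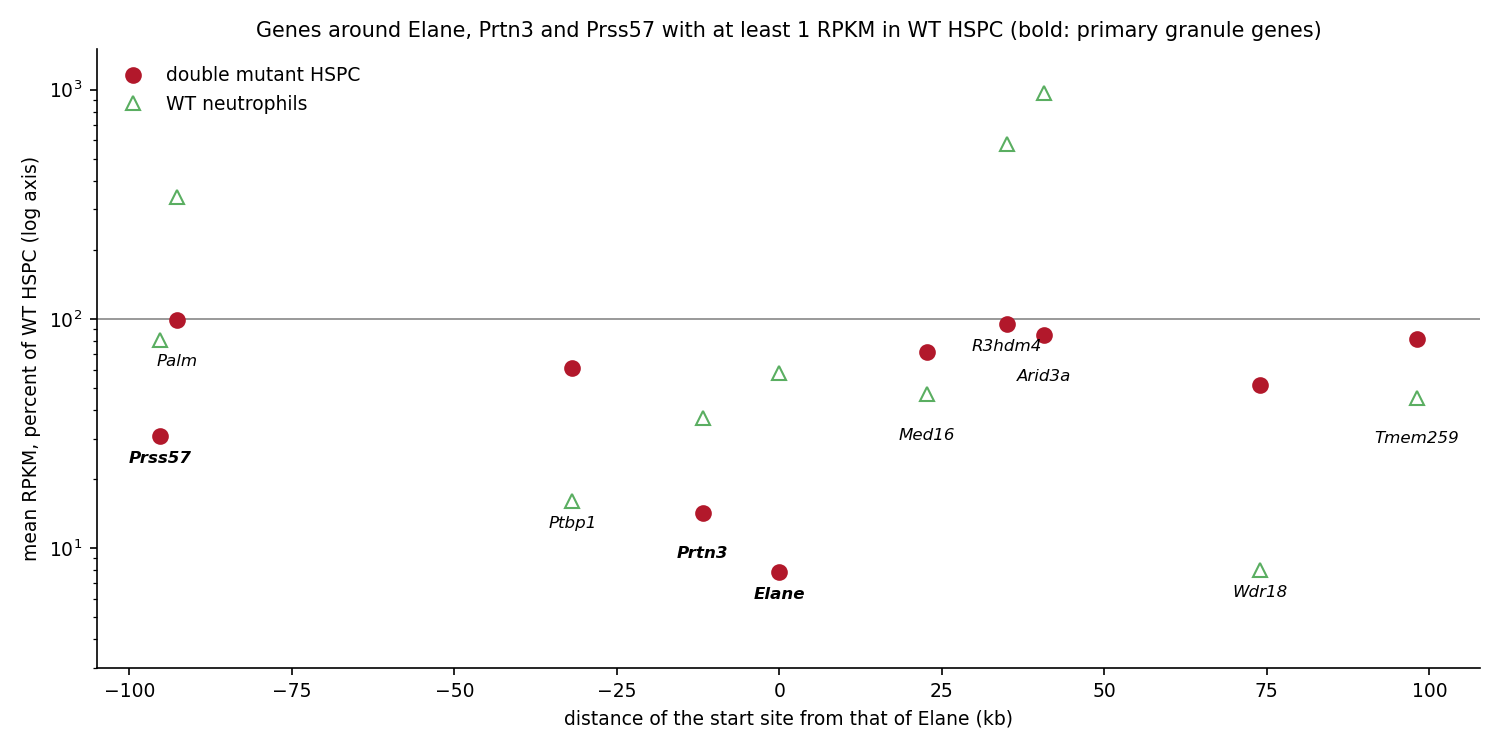
Mean RPKM as a percent of WT HSPC (log axis) for genes around Elane with at least 1 RPKM in WT HSPC, against the distance of their start sites from that of Elane in kilobases; filled circles are the DM and open triangles neutrophils. The 3 primary granule genes have the lowest DM circles, at 7.85%, 14.3% and 30.8%, and Wdr18 has the lowest neutrophil triangle.

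Markers of other cell types moved in both directions in the DM, where 58.9% of all tested genes were called lower and 2316 of 9702 higher. All 9 mast cell, basophil and eosinophil genes were lower (median -3.93), and their summed level went from 603 and 617 RPKM in WT to between 18.5 and 22.3 in the DM. In neutrophils they summed to between 611 and 625 RPKM, with 2 of the 9 lower than in WT HSPC and 7 not called. Of all tested genes, 62.8% were called lower in neutrophils. All 9 tested dendritic cell genes were higher (median 7.41), and of 10 monocyte genes 8 were higher and 1, F13a1, was lower, with sums of 138 RPKM in WT and 919 to 926 in the DM. All 8 megakaryocyte and all 8 proliferation genes were lower. No gene of these lists was listed at 0 in both libraries of a group. The part of these cell types in the fall of the 6 genes was not tested.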

How the data were processed

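Per the labels' protocols, directional libraries were prepared after removal of ribosomal RNA. STAR 2.4.0, HTSeq, DiffBind and mm10 are named per the submitters' processing notes. No source used here states the counting strand, the annotation or which reads entered the library total. RPKM values, 1 table for each library, were deposited by the authors. Whole reads were recovered from them for 16645 of 16655 genes (99.9%, tolerance 0.02 reads). They served for depth, gene lengths, shares of reads and levels per kilobase of merged exons, and not for the tests.

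In R 4.3.3, limma 3.58.1 was run on log2 values of RPKM + 0.5, with a variance trend and Benjamini-Hochberg adjustment at 0.05, checked on simulated data. Genes with at least 1 RPKM in 2 fitted libraries were kept: 9702 in the 8 HSPC libraries, and 10174 in all 10 for the 2 neutrophil comparisons. There were 9 comparisons. P-values measure the spread between these replicates, pooled over the fitted libraries.

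The members and lists were chosen with earlier results of these data known. Named genes were the members, up to 4 called genes per list with the largest change in DM against WT and up to 2 in other comparisons, genes within 100000 bases of Elane, Mpo, Ctsg or Ms4a3, and the 8 and 5 genes most like the members. Gene symbols were matched to GENCODE M21 (16158 found). Python 3.11.15 was used. The alternatives were pseudocount, filter, scaling, variance trend, fitted libraries, a replicate block, left-out libraries and a Y-linked term.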

Additional observations from a re-analysis of the deposited data

Results flagged for a closer look

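For 5 of the 6 genes the effect of Npm1c differed between cells with and without Flt3-ITD, by limma's test of the interaction (n = 2 libraries per group). On the deposited log2 scale the interaction was -3.11 for Mpo, -2.96 for Elane, -2.04 for Ctsg, -1.78 for Ms4a3 and -1.77 for Prtn3, with adjusted p from 5.23e-04 to 0.0167. Across all tested genes 27.6% had a lower interaction. Prss57, at -0.38, did not pass (adjusted p = 0.484).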

How the results depend on the processing

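All 6 members were called lower in DM against WT and against Flt3-ITD under every alternative, except that Prss57 was not tested with a minimum of 5 RPKM (5 calls). In Npm1c against WT the 5 calls, beside 5638 of 9702 genes called lower, fell to 0 with no filter (5856 of 16771 genes lower). They also fell to 0 under median-of-ratios (1953 of 9702), listed-gene total (3024) and quantile scaling (1613). The calls did not hold when single libraries were left out either. In Npm1c against Flt3-ITD 1 member was called, and 1456 of 9702 genes were called lower. The members called became 2 with a pseudocount of 0.1 (1569 of 9702 genes) or a minimum of 5 RPKM (976 of 5285). They became 3 under median-of-ratios scaling (1247 of 9702) and 4 with all 10 libraries fitted (1990 of 10174). With the Y-linked term they were 5 (2527 of 9702). They were 0 with no filter (912 of 16771) or after quantile normalization (966 of 9702), and changed when single libraries were left out. In Flt3-ITD against WT, the counts without single libraries ran from 0 to 6 higher and from 0 to 6 lower. In neutrophils against WT HSPC there were 3 calls, beside 6391 of 10174 genes called lower. They became 5 on listed-gene total scaling (7158 of 10174 genes) and 6 with the 4 compared libraries alone (6289 of 9643). The interaction's 5 calls became 3 with the Y-linked term, while the lower calls over all 9702 genes went from 2680 to 2357. The causes were not tested.

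Directions turned as follows (deposited log2). In Flt3-ITD against WT, with the Y-linked term and without Flt3-ITD replicate 1, Ctsg turned to -0.27 and -0.50, Elane to -0.22 and -0.64, Mpo to -0.17 and -0.40, Prss57 to -0.24 and -0.50 and Prtn3 to -0.17 and -0.50. Without Flt3-ITD replicate 2 they were 0.64, 0.81, 0.65, 0.67 and 0.67 in that order. Ms4a3 turned to 0.092 (median-of-ratios), 0.055 (quantile) and 0.57 (without Flt3-ITD replicate 2), and was -0.73 without replicate 1. In neutrophils against WT HSPC, median-of-ratios scaling gave 0.075 for Elane, 0.33 for Ms4a3 and 0.48 for Prss57, and quantile normalization 0.26 for Prss57. Ctsg in neutrophils against DM turned to -0.037 on listed-gene total scaling. Prss57 turned to 0.036 in DM against Npm1c and 0.28 in the interaction with the Y-linked term, and to 0.20 in the interaction without Flt3-ITD replicate 1 (-0.96 without replicate 2). Of the members' other values under alternatives, 716 kept direction and side of the threshold, 37 gained a call and 51 lost one.

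Lower genes as a share of all calls also moved with scaling: from 94.4% to 53.9% (median-of-ratios) in Flt3-ITD against WT, 85.8% to 51.1% (quantile) in Npm1c against Flt3-ITD, 63.0% to 51.6% in DM against Flt3-ITD, 68.8% to 50.7% in neutrophils against WT HSPC, 67.2% to 52.4% against DM (median-of-ratios), and 41.4% to 63.1% (quantile) in the interaction.

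The labels' replicate numbers did not pair the libraries: replicate differences correlated between HSPC groups at -0.12 to 0.03. With the replicate block, calls in Npm1c against Flt3-ITD fell from 1 to 0, and the counts of the 8 other comparisons did not move by more than 1.5 times. With 2 libraries per group, and reads numbering 291 to 1916 for Prss57, precision rests on the replicates rather than on depth.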
